A study of Mus musculus with 12 samples.

Results

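Axon guidance ligands and receptors were followed as 1 group of 67 genes among the 19938 genes that the arrays measured with a probe set of a single gene symbol. A gene entered the group by its symbol alone, as a member of 9 families. These were 13 Eph receptors, 8 ephrins, 20 semaphorins, 9 plexins, 2 neuropilins, 3 Slits, 4 Robos, 4 netrins and 4 Unc5 receptors. Each gene was represented by its brightest probe set, by the mean over the 12 arrays. The question was which of these genes set apart the populations along the way from astrocytes to induced pluripotent stem cells (iPSCs).

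The arrays covered 5 groups of mouse cells. Astrocytes (3 arrays) were cultures from cortex at postnatal day 3, grown in 10% fetal bovine serum and sorted for absence of green fluorescent protein (GFP) driven from the Sox1 gene. Such GFP-negative astrocytes received retroviruses for Oct4, Klf4, Sox2 and c-Myc, and the cells called day 6 cells here (3 arrays) were the GFP-positive fraction sorted 6 days into that reprogramming, with 15% serum and 1000 U/ml leukaemia inhibitory factor (LIF) in the medium. Neural stem cells (2 arrays) were prepared from embryonic telencephalon (day 12.5 to 14.5) and kept in N2 medium with 20 ng/ml each of basic FGF and EGF. Mature iPSCs derived from the reporter astrocytes (astrocyte iPSCs, 2 arrays) and the fibroblast-derived line iPS-MEF-Ng-20D-17 (MEF iPSCs, 2 arrays) were both cultured in 15% serum or serum replacement with 1500 U/ml LIF, on mitomycin C-treated mouse embryonic fibroblasts (MEFs) as feeders. The first 4 groups carry the Sox1-GFP reporter on a Sox1+/- background, and the MEF iPSCs, which are 1 line, carry Nanog-GFP-IRES-Puro instead. The labels do not say how many clones the astrocyte iPSCs came from, nor which mice or cultures each array came from. The p values therefore rest on the differences between arrays of a group, some of which may be technical.

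Guidance molecules steer growing axons and migrating cells by attraction or repulsion, and the same molecules act in blood vessels, epithelia and progenitor zones. Ephrins are cell surface ligands of the Eph receptor tyrosine kinases, and the signal can run both ways where cells touch. Semaphorins act through plexins, with neuropilins as co-receptors for most secreted class 3 semaphorins. Slits are secreted ligands of Robo receptors, and netrins bind Dcc and the Unc5 receptors. In the developing forebrain these families guide axons, place migrating interneurons and keep progenitors in their niches.

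Values are log2 intensities of the RMA-processed arrays. The median probe set of an array lay between 6.61 and 6.71 on this scale, and r between arrays of a group was 0.992 to 0.996 across probe sets. A gene was called different between groups at a limma adjusted p under 0.05 (Benjamini-Hochberg over all 19938 genes) and a log2 fold change of 1 or more in size. In the fold changes below, the error is the limma standard error (SE), and the direction is the first group named minus the other. In none of the called differences of a guidance gene did the arrays of the groups overlap. That was usual for any called gene. Over all genes the arrays overlapped in 2 of 3360 calls for day 6 cells minus astrocytes. They did in 1 of 1771 for day 6 cells minus neural stem cells and 0 of 2907 for neural stem cells minus astrocytes. No deposited intensity lay below 20.2, so a constant may have been added before deposit, which would shrink the differences of dim genes. Of the 67 genes, 58 exceeded the median of the array on at least 2 arrays, against 12592 of all 19938 genes. The labels were checked against defining markers. All 8 astrocyte markers lay above the array median on all astrocyte arrays, and the 7 pluripotency markers on all iPSC arrays. The 7 measured neural stem cell markers did so on both neural stem cell arrays and also on all astrocyte arrays. Their mean levels were 9.84 to 9.88 and 9.74 to 10.04, so neither count nor mean tells these groups apart. Of the 7, Olig2 was called higher (1.56 ± 0.17) and Nr2e1 lower (-1.05 ± 0.11) in neural stem cells than in astrocytes. Sox1, Pax6, Nes, Hes5 and Fabp7 were not called. In day 6 cells only 2 of 8 astrocyte markers and 2 of 7 pluripotency markers lay above the array median on all arrays, with 4 of 5 epithelial markers. Neural stem cell markers did so in 5 of 7, but their mean level was 7.38 to 7.44. Of them Nes, Fabp7, Olig2 and Nr2e1 were called lower than in neural stem cells, by 4.86-fold (Nr2e1) to 57.6-fold (Olig2). Pax6 (0.56 ± 0.11) and Sox1 (0.14 ± 0.10) were higher than in neural stem cells and Hes5 lower (-0.77 ± 0.15), and none of these was called. Sox1, whose reporter defined the sort, was at 7.97, 8.25 and 8.17 in astrocytes and 8.40, 8.53 and 8.27 in day 6 cells, without overlap, and its difference of 0.27 ± 0.09 (limma adjusted p = 0.021) was not called. All 7 neuron markers exceeded the array median on both neural stem cell arrays, but Stmn2 was called lower there than in astrocytes (-1.55 ± 0.23). Dcx, Tubb3, Snap25 and Map2 were called higher there than in astrocytes, and Rbfox3 and Gad1 were not called. Of 5 measured oligodendrocyte lineage markers, 3 exceeded the array median on both neural stem cell arrays. Of the 6 endothelial and pericyte markers, 1 did so in astrocytes, 3 in each iPSC group and 0 in day 6 cells and neural stem cells. None of 6 microglia markers did so in any group.

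**Figure D1:**
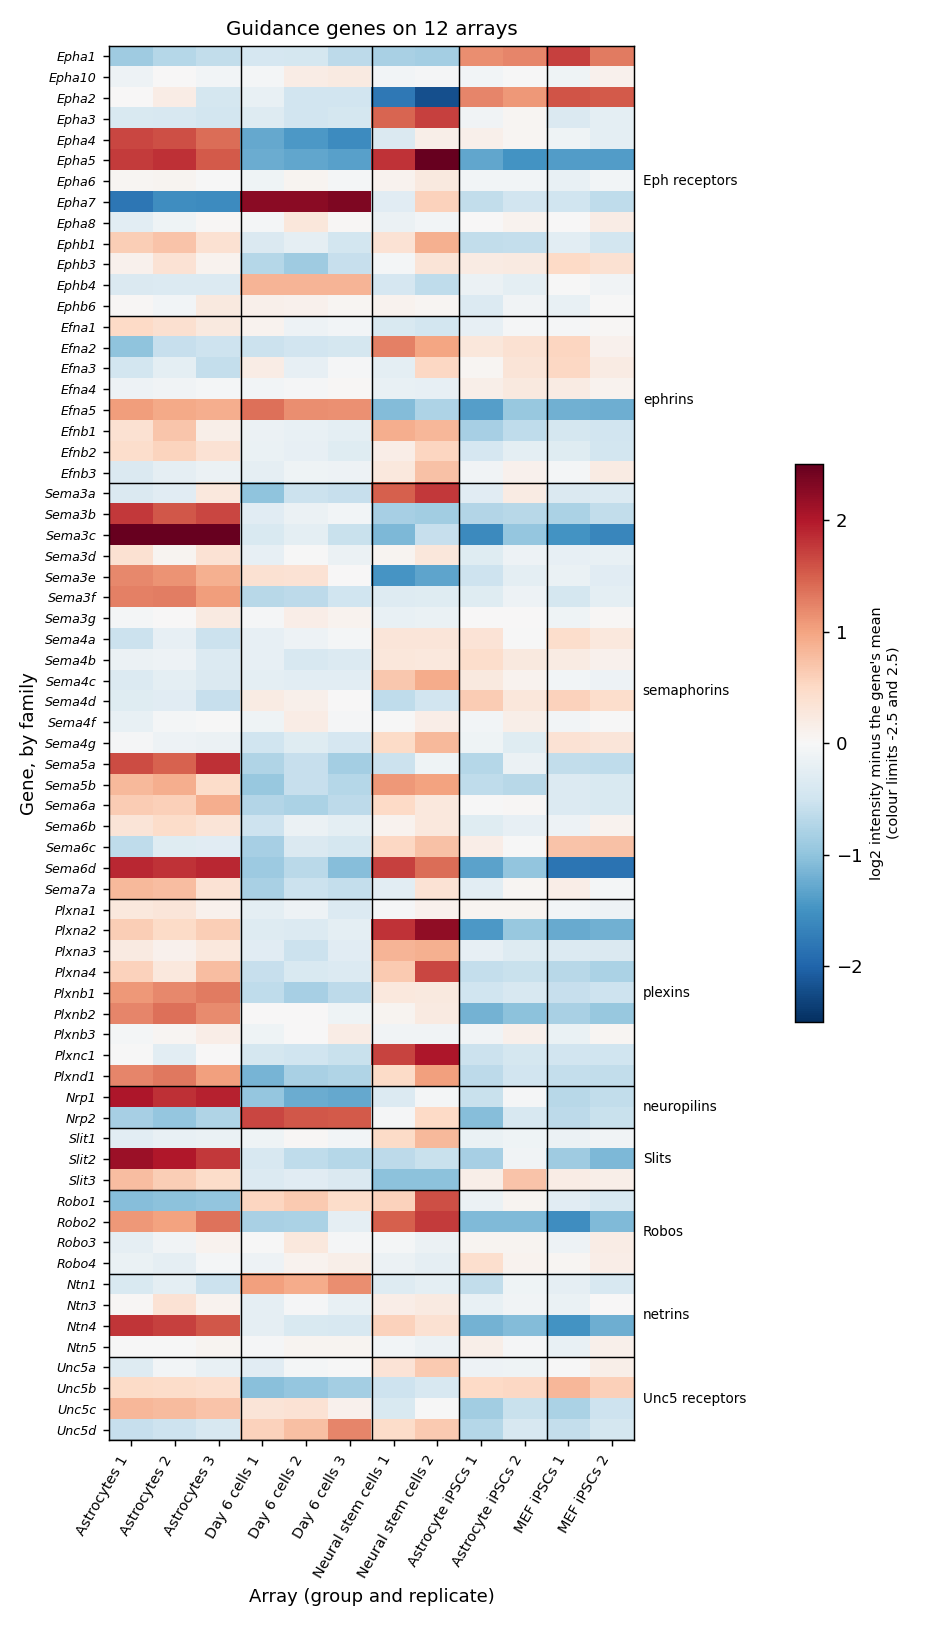
Heat map of the 67 guidance genes (rows, by family) on the 12 arrays (columns, by group and replicate), coloured by log2 intensity minus the gene's mean over the arrays, with colours capped at -2.5 and 2.5. Epha7, Nrp2 and Ntn1 are red on the 3 day 6 arrays, while Sema3c, Nrp1, Slit2 and Ntn4 are red on the 3 astrocyte arrays and pale or blue elsewhere.

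In the day 6 cells, 24 of the 67 guidance genes differed from astrocytes, 6 higher and 18 lower. Of all genes 16.9% were called in that comparison, 6.75% higher and 10.1% lower. The median log2 fold change was -0.39 over the guidance genes and 0.04 over all genes. Against neural stem cells, 7 were higher and 18 lower in day 6 cells, 25 of 67 in all, where 8.88% of all genes were called (2.94% higher and 5.94% lower), and the medians were -0.40 and 0.07. Neural stem cells differed from astrocytes in 24 of 67, 11 higher and 13 lower (all genes 14.6%, with 6.49% higher and 8.1% lower), with medians of -0.04 and -0.03. From day 6 cells to astrocyte iPSCs 4 were higher and 7 lower, 11 of 67 (all genes 6.11%, with 3.29% higher and 2.82% lower), with medians of 0.01 and -0.03. For MEF iPSCs the same contrast had 6 higher and 7 lower, 13 of 67 (all genes 6.11%, with 3.18% higher and 2.93% lower), with medians of 0.01 and -0.02. The comparisons share arrays and are given side by side. In bulk RNA, fewer cells of a type and less RNA per cell cannot be told apart.

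**Figure D2:**
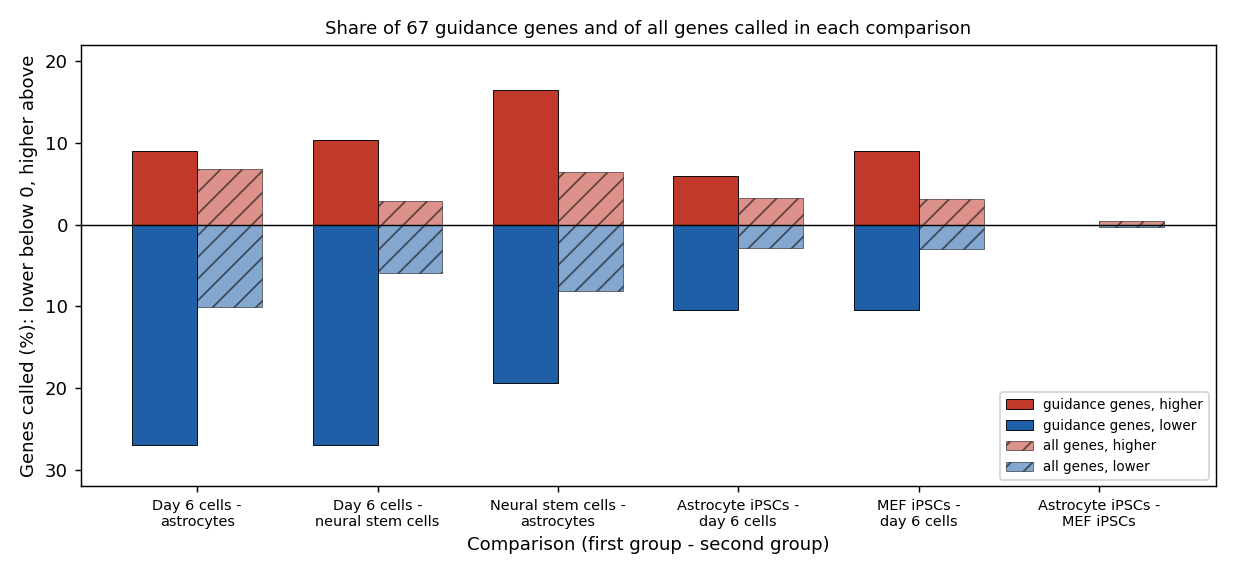
Bars give the percentage of genes called higher (above 0) and lower (below 0) in each comparison, for the 67 guidance genes (solid) and for all 19938 genes (hatched). The solid bars for lower genes reach 26.9% in the comparisons of day 6 cells with astrocytes and with neural stem cells, against 10.1% and 5.94% of all genes.

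Eph receptors changed in both directions at day 6, with 2 higher and 2 lower of 13 against astrocytes, beside 6.75% and 10.1% of all genes. Epha7, an A-class receptor of the developing brain, stood at 5.94, 6.20 and 6.18 in astrocytes, 10.00, 10.00 and 10.09 in day 6 cells, 7.46 and 8.32 in neural stem cells, 7.13 and 7.27 in astrocyte iPSCs and 7.25 and 7.12 in MEF iPSCs. All day 6 arrays were above all other arrays, and all astrocyte arrays were below all others. The log2 fold change was 3.92 ± 0.17 against astrocytes (adjusted p = 4.9e-09), which is a 15.2-fold difference, and 2.14 ± 0.19 against neural stem cells (adjusted p = 4.44e-06). Epha4, which binds ephrins of both classes, ran the other way, at 10.16, 10.11 and 9.88 in astrocytes, 7.21, 7.06 and 6.93 in day 6 cells, 8.13 and 8.65 in neural stem cells, 8.61 and 8.54 in astrocyte iPSCs and 8.38 and 8.25 in MEF iPSCs. Here the day 6 arrays were the lowest of the 12 and the astrocyte arrays the highest, -2.98 ± 0.13 against astrocytes and -1.32 ± 0.14 against neural stem cells (adjusted p = 4.29e-09 and 2.02e-05). In day 6 cells and in astrocytes, both genes were called the same way against each of the 4 other groups.

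The promoters of these oppositely placed receptors are shown because Epha7 and Epha4 were the Eph receptors set apart in day 6 cells. Each sequence covers 250 bases before to 50 after the gene's start, from RefSeq on GRCm38.p6, with GC boxes in capitals. The GC box was searched as GGGCGG and, for the other strand, CCGCCC, counted without overlap. The Epha7 window, the first of 2 starts listed, lies at chr4:28812881-28813180, plus strand, and that of Epha4 at chr1:77515039-77515338, minus strand.
Epha7: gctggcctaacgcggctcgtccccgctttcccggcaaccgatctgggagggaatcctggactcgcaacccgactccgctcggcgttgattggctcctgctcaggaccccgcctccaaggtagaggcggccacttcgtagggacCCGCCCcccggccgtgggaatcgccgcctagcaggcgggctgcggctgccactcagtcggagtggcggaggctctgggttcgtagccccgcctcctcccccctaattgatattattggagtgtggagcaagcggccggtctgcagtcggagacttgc
Epha4: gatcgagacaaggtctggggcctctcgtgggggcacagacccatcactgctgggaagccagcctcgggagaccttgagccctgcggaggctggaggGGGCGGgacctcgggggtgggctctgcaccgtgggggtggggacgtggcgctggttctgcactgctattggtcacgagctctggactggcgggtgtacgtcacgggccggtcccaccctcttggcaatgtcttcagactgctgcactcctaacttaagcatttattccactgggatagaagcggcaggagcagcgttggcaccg
Each holds 1 GC box, and the CG dinucleotide occurs 28 times in the Epha7 window and 17 times in the Epha4 window. Of 32851 promoter windows in the table, 35.7% hold a GC box, and the median number of CG dinucleotides is 7. For 58 of the 67 guidance genes the table has 74 windows, of which 71.6% hold a GC box, with a median of 18.5 CG dinucleotides. The table also covers genes that make no protein, and no list of like genes was compared.

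Epha5, another A-class receptor of the brain, separated the neural groups from the rest. It stood at 8.30, 8.37 and 8.07 in astrocytes, 5.31, 5.25 and 5.18 in day 6 cells, 8.35 and 9.10 in neural stem cells, 5.24 and 5.05 in astrocyte iPSCs and 5.15 and 5.16 in MEF iPSCs. The lowest of the 5 astrocyte and neural stem cell arrays was at 8.07 and the highest of the others at 5.31. In day 6 cells it was lower than in astrocytes (-3.0 ± 0.15) and than in neural stem cells (-3.48 ± 0.17), with adjusted p of 1.8e-08 and 4.21e-08. The iPSCs were not called different from day 6 cells, at -0.10 ± 0.17 for astrocyte iPSCs and -0.10 ± 0.17 for MEF iPSCs. Ephb4, a receptor of ephrin-B2 best known from veins, was at 7.80, 7.82 and 7.81 in astrocytes and 9.01, 9.01 and 9.0 in day 6 cells. The groups did not overlap, and the difference was 1.19 ± 0.06 (adjusted p = 2.37e-08), with neural stem cells at 7.73 and 7.53.

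Epha3, also of the A class, was high in neural stem cells alone, at 7.42 and 7.67 there and between 5.50 and 6.01 on the other arrays. It was higher than in astrocytes by 2.0 ± 0.09 (adjusted p = 1.1e-08). Epha2, a receptor of epithelia and of pluripotent cells, had its lowest levels in neural stem cells and its highest in iPSCs. The values were 8.43, 8.61 and 7.99 in astrocytes, 8.24, 7.95 and 7.95 in day 6 cells, 6.64 and 6.24 in neural stem cells, 9.65 and 9.52 in astrocyte iPSCs and 10.01 and 9.96 in MEF iPSCs. The neural stem cell arrays overlapped with no other group, and the iPSC arrays were above all others. Day 6 cells were higher than neural stem cells by 1.61 ± 0.17 (adjusted p = 1.99e-05). Astrocyte iPSCs were higher than day 6 cells by 1.54 ± 0.17 and MEF iPSCs by 1.94 ± 0.17 (adjusted p = 3.82e-05 and 6.83e-06).

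Epha1, a receptor of epithelial tissues, was below the array median outside the iPSCs. It stood at 6.43, 6.42 and 6.20 in day 6 cells, 8.02 and 8.07 in astrocyte iPSCs and 8.58 and 8.15 in MEF iPSCs. No iPSC array overlapped with day 6, and the differences from day 6 cells were 1.69 ± 0.12 and 2.01 ± 0.12 (adjusted p = 1.49e-06 and 4.48e-07). Epha4 was also higher in both iPSC groups than in day 6 cells (1.51 ± 0.14 and 1.25 ± 0.14), and Epha7 was lower (-2.83 ± 0.19 and -2.85 ± 0.19). Ephb3 was higher in MEF iPSCs than in day 6 cells (1.17 ± 0.13) and, at 0.94 ± 0.13, was not called in astrocyte iPSCs. Ephb4 fell in astrocyte iPSCs (-1.04 ± 0.07, and not called without astrocyte iPSC replicate 2) and, at -0.90 ± 0.07, was not called in MEF iPSCs. Whether the iPSC groups differed from each other in these was tested directly, and neither difference was called (Ephb3 -0.22 ± 0.14, Ephb4 -0.14 ± 0.08).

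No ephrin, the ligands of these receptors, was called between day 6 cells and astrocytes, beside 16.9% of all genes. With 8 genes, a count of 0 is not far from that share. Among the 8, by limma, 5 had an unadjusted p under 0.05 and limma with trend and robust settings also called 0. The share of all genes at that looser limit was not counted. Efna5, a ligand tethered to the membrane by a lipid anchor, stood at 9.24, 9.15 and 9.10 in astrocytes, 9.57, 9.36 and 9.34 in day 6 cells, 7.11 and 7.42 in neural stem cells, 6.82 and 7.25 in astrocyte iPSCs and 7.0 and 6.97 in MEF iPSCs. The lowest astrocyte or day 6 array was at 9.10 and the highest of the others at 7.42. The difference was 2.16 ± 0.13 for day 6 cells minus neural stem cells and -2.39 ± 0.13 for astrocyte iPSCs minus day 6 cells (adjusted p = 1.82e-07 and 1.42e-07). For MEF iPSCs minus day 6 cells it was -2.43 ± 0.13.

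Efna2, another anchored ligand, was highest in neural stem cells, at 8.30 and 8.04, against 6.03, 6.46 and 6.53 in astrocytes and 6.50, 6.56 and 6.61 in day 6 cells. Neither group overlapped with neural stem cells, and the differences were 1.83 ± 0.16 for neural stem cells minus astrocytes and -1.61 ± 0.16 for day 6 cells minus neural stem cells. Efnb1, a transmembrane ephrin encoded on the X chromosome, was lower in day 6 cells than in neural stem cells (-1.05 ± 0.13). The remaining 5 ephrins, Efna1, Efna3, Efna4, Efnb2 and Efnb3, were called in none of the 10 pairs of groups.

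Of the 20 semaphorins, 8 were lower in day 6 cells than in astrocytes, 0 higher and 12 not called, beside 10.1% of all genes lower and 6.75% higher. The 8 were Sema3b, Sema3c, Sema3f, Sema5a, Sema5b, Sema6a, Sema6d and Sema7a. Sema3c, a secreted semaphorin of heart outflow and cortical development, stood at 10.53, 10.36 and 10.61 in astrocytes, 7.25, 7.39 and 7.07 in day 6 cells, 6.51 and 7.06 in neural stem cells, 6.04 and 6.66 in astrocyte iPSCs and 6.13 and 6.0 in MEF iPSCs. The lowest astrocyte array was at 10.36 and the highest of the others at 7.39. The difference for day 6 cells was -3.26 ± 0.17 (adjusted p = 2.06e-08), which is 9.59-fold, and that for neural stem cells -3.72 ± 0.19.

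Sema3b, Sema3f and Sema5a shared that placing, high in astrocytes alone. Sema3b and Sema3f are secreted, and Sema5a spans the membrane and carries thrombospondin repeats. Sema3b stood at 9.02, 8.81 and 8.94 in astrocytes and 6.99, 7.12 and 7.21 in day 6 cells, with 6.40 to 6.66 on the neural stem cell and iPSC arrays. For Sema3f the values were 9.05, 9.07 and 8.85 in astrocytes and 7.10, 7.15 and 7.30 in day 6 cells, with 7.35 to 7.67 on those arrays. Sema5a was at 9.24, 9.08 and 9.43 in astrocytes and 6.86, 7.03 and 6.75 in day 6 cells, with 6.89 to 7.49. The astrocyte arrays were above all others for all 3, and the fold changes were -1.82 ± 0.08, -1.81 ± 0.09 and -2.37 ± 0.15 (largest adjusted p 1.16e-07). Each was also called lower in neural stem cells than in astrocytes, at -2.51 ± 0.09, -1.52 ± 0.10 and -1.97 ± 0.17.

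Sema6d, a transmembrane semaphorin, was instead shared by astrocytes and neural stem cells. The values were 10.04, 9.97 and 10.04 in astrocytes, 7.25, 7.49 and 7.11 in day 6 cells, 9.88 and 9.55 in neural stem cells, 6.83 and 7.18 in astrocyte iPSCs and 6.33 and 6.32 in MEF iPSCs. The lowest of the neural arrays was at 9.55 and the highest of the others at 7.49. Day 6 cells were lower than astrocytes (-2.73 ± 0.12) and than neural stem cells (-2.43 ± 0.13), with adjusted p of 4.92e-09 and 8.35e-08. Sema5b and Sema6a, both membrane-spanning, were likewise lower in day 6 cells than in both, with -1.47 ± 0.12 and -1.44 ± 0.09 against astrocytes and -1.80 ± 0.13 and -1.12 ± 0.10 against neural stem cells. Sema7a, an anchored semaphorin that binds plexin C1 and integrins, was lower than in astrocytes (-1.29 ± 0.17) and not called against neural stem cells (-0.69 ± 0.19).

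Against neural stem cells 7 of the 20 semaphorins were lower in day 6 cells and 1 higher, beside 5.94% and 2.94% of all genes. Sema3a, the secreted repellent that acts through Nrp1, marked neural stem cells. It stood at 6.27, 6.35 and 6.91 in astrocytes, 5.64, 6.10 and 6.05 in day 6 cells, 8.13 and 8.40 in neural stem cells, 6.35 and 6.84 in astrocyte iPSCs and 6.28 and 6.29 in MEF iPSCs. Both neural stem cell arrays were above all others, 1.76 ± 0.21 from astrocytes, and day 6 cells were -2.33 ± 0.21 from neural stem cells (adjusted p = 2.48e-05 and 4.51e-06). Sema3e, which binds plexin D1 without a neuropilin, had the reverse placing, with neural stem cells lowest. Its levels were 6.24 and 6.40 there, 8.10, 8.08 and 7.72 in day 6 cells and 8.92, 8.83 and 8.61 in astrocytes. The 3 groups did not overlap. Day 6 cells were higher than neural stem cells by 1.65 ± 0.13 (adjusted p = 2.21e-06), and neural stem cells were -2.47 ± 0.13 from astrocytes.

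The smaller differences from neural stem cells were in Sema4c, Sema4g and Sema6c, all transmembrane. They were -1.06 ± 0.08, -1.05 ± 0.10 and -1.17 ± 0.15, and Sema4c and Sema4g were not called without neural stem cell replicate 2, nor Sema4g without day 6 replicate 1. Between astrocyte iPSCs and day 6 cells limma called 0 of 20 semaphorins, beside 6.11% of all genes. There 12 had an unadjusted p under 0.05 and 10 an adjusted p under 0.05 at any fold, and the trend and robust settings called 0. How many of all genes passed these looser limits was not counted, and 6.11% is not their share. Between MEF iPSCs and day 6 cells 2 of 20 were called, also beside 6.11% of all genes. In MEF iPSCs Sema6c was higher, at 7.54 and 7.57 against 6.01, 6.48 and 6.40 in day 6 cells. The arrays did not overlap, with a difference of 1.26 ± 0.15 (adjusted p = 5.24e-05). Sema3c was lower in MEF iPSCs than in day 6 cells (-1.17 ± 0.19). At -0.89 ± 0.19 it was not called in astrocyte iPSCs, though it was with 16 subtracted before log2.

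Of the 9 plexins, the semaphorin receptors, 3 were lower in day 6 cells than in astrocytes and 5 lower than in neural stem cells, and 0 were higher in either comparison. Of all genes 10.1% and 5.94% were lower and 6.75% and 2.94% higher. Plxnb1 and Plxnb2, receptors of class 4 semaphorins, differed from astrocytes by -1.91 ± 0.07 and -1.29 ± 0.08, and Plxnd1, the Sema3e receptor, by -2.09 ± 0.15 (largest adjusted p 2.08e-07). Plxnb2 stood at 11.39, 11.54 and 11.35 in astrocytes, 10.18, 10.18 and 10.06 in day 6 cells, 10.24 and 10.39 in neural stem cells, 8.99 and 9.14 in astrocyte iPSCs and 9.36 and 9.21 in MEF iPSCs. The astrocyte arrays were highest, day 6 cells and neural stem cells lay close together (-0.17 ± 0.09, not called), and the iPSC arrays were lowest. Astrocyte iPSCs minus day 6 cells was -1.08 ± 0.09 and was called, while MEF iPSCs minus day 6 cells, at -0.85 ± 0.09, was not. The iPSC groups were not called different (-0.22 ± 0.10).

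Plxna2 and Plxnc1 marked neural stem cells. Plxna2, a receptor for class 6 and, with neuropilins, class 3 semaphorins, stood at 8.48, 8.35 and 8.48 in astrocytes, 7.53, 7.52 and 7.62 in day 6 cells, 9.68 and 10.09 in neural stem cells, 6.43 and 6.92 in astrocyte iPSCs and 6.61 and 6.66 in MEF iPSCs. Neural stem cells did not overlap with any group, and the iPSCs were lowest. Plxnc1, the Sema7a receptor, was at 8.14 and 8.47 in neural stem cells and between 5.90 and 6.47 on the other arrays. Day 6 cells were lower than neural stem cells in Plxna2 (-2.32 ± 0.14) and in Plxnc1 (-2.35 ± 0.11), and neural stem cells exceeded astrocytes by 1.45 ± 0.14 and 1.93 ± 0.11 (largest adjusted p of the 4 differences 5.52e-06). Plxna3, Plxna4 and Plxnd1 were also lower in day 6 cells than in neural stem cells, at -1.23 ± 0.09, -1.59 ± 0.24 and -1.66 ± 0.16.

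The neuropilins, of which there are 2, went opposite ways at day 6. Nrp1, the co-receptor of Sema3a and of vascular endothelial growth factor, stood at 9.10, 8.90 and 9.0 in astrocytes, 6.12, 5.84 and 5.81 in day 6 cells, 6.74 and 7.02 in neural stem cells, 6.52 and 7.06 in astrocyte iPSCs and 6.39 and 6.46 in MEF iPSCs. The astrocyte arrays were the highest, from 8.90 against at most 7.06 elsewhere, and the day 6 arrays were the lowest. Nrp2, the co-receptor of Sema3f, was at 7.19, 7.06 and 7.28 in astrocytes, 9.70, 9.58 and 9.55 in day 6 cells, 8.0 and 8.53 in neural stem cells, 6.96 and 7.61 in astrocyte iPSCs and 7.37 and 7.46 in MEF iPSCs. For it the day 6 arrays were the highest of the 12 and did not overlap with any group. The differences from astrocytes were -3.08 ± 0.14 for Nrp1 and 2.43 ± 0.16 for Nrp2 (adjusted p = 5.46e-09 and 1.4e-07), or 8.45-fold lower and 5.4-fold higher.

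Against neural stem cells Nrp2 was higher in day 6 cells by 1.34 ± 0.18, and Nrp1, at -0.96 ± 0.15, was not called. Nrp1 was called there with cyclic loess, with 16 subtracted before log2 or when replicate 1 of either group was left out. Neural stem cells differed from astrocytes in both, with Nrp1 at -2.12 ± 0.15 and Nrp2 at 1.09 ± 0.18, the latter not called without neural stem cell replicate 2. Nrp2 was lower than in day 6 cells by 2.32 ± 0.18 in astrocyte iPSCs and 2.19 ± 0.18 in MEF iPSCs (adjusted p = 2.31e-06 and 3.83e-06). No day 6 array overlapped with an iPSC array. The promoters of this pair, which moved in opposite directions, are given as above, Nrp2 at chr1:62703067-62703366, plus strand, and Nrp1 at chr8:128358823-128359122, plus strand, with GC boxes in capitals.
Nrp2: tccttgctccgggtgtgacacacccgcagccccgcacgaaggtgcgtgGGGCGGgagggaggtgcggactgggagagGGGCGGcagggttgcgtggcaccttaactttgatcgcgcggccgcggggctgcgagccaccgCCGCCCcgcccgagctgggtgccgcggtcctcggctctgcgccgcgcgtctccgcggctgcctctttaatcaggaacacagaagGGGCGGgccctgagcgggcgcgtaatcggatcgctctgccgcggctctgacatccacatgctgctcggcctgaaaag
Nrp1: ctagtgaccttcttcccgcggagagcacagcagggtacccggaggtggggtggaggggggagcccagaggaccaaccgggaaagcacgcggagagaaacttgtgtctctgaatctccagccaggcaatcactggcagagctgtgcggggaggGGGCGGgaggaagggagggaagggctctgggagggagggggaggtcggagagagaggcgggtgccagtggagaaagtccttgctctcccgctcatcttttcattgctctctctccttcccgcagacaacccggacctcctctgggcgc
The Nrp2 window holds 4 GC boxes and 37 CG dinucleotides, and the Nrp1 window 1 GC box and 14 CG dinucleotides. These counts describe the letters of the windows, and no binding or methylation was measured.

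**Figure D3:**
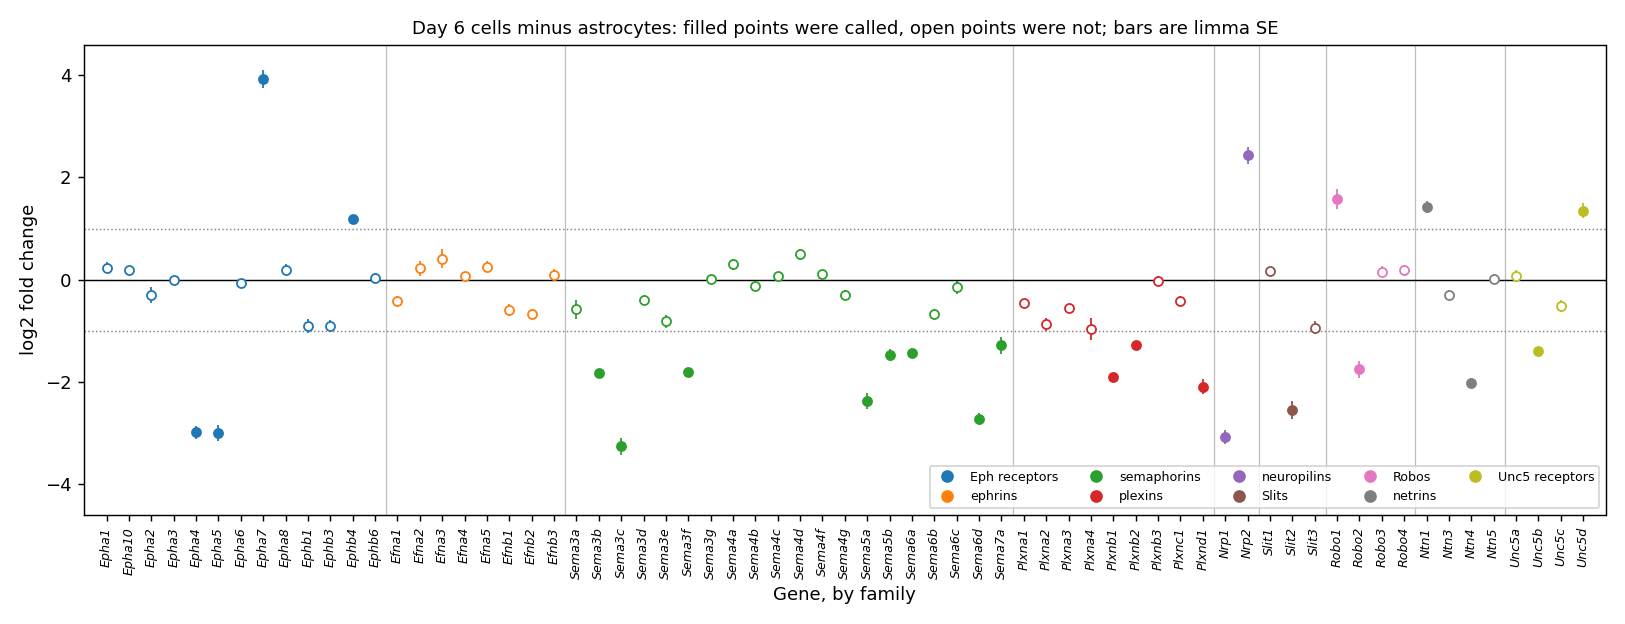
Log2 fold change of day 6 cells minus astrocytes (3 arrays each) for the 67 guidance genes, by family, with limma SE as bars, filled where called and open where not, and dotted lines at -1 and 1. The called semaphorins and plexins all lie below -1, while the Eph receptors, neuropilins, Robos, netrins and Unc5 receptors have called genes on both sides of 0.

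Among the Slits, secreted ligands, 0 of 3 were higher and 1 lower in day 6 cells than in astrocytes, and among their Robo receptors 1 of 4 was higher and 1 lower, beside 6.75% and 10.1% of all genes. Slit2, a secreted repellent of the ventral forebrain, stood at 9.87, 9.72 and 9.49 in astrocytes, 7.33, 7.09 and 7.01 in day 6 cells, 7.06 and 7.16 in neural stem cells, 6.89 and 7.64 in astrocyte iPSCs and 6.83 and 6.60 in MEF iPSCs. The lowest astrocyte array was at 9.49 and the highest of the others at 7.64. Day 6 cells were -2.55 ± 0.17 and neural stem cells -2.58 ± 0.19 from astrocytes (adjusted p = 1.45e-07 and 5.39e-07). Slit3 was at 8.46, 8.30 and 8.15 in astrocytes and 6.67 and 6.66 in neural stem cells, without overlap, and at 7.35, 7.42 and 7.33 in day 6 cells. Neural stem cells were lower than astrocytes (-1.64 ± 0.14), while the day 6 difference (-0.94 ± 0.12) fell short of the fold limit and was called without astrocyte replicate 3. Slit1 was called in no pair of groups.

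Robo1 and Robo2, both receptors of Slits, moved apart. Robo1 stood at 7.33, 7.37 and 7.42 in astrocytes, 8.94, 9.06 and 8.86 in day 6 cells, 8.98 and 10.02 in neural stem cells, 8.26 and 8.47 in astrocyte iPSCs and 8.13 and 8.0 in MEF iPSCs. The astrocyte arrays were the lowest of the 12, and the difference was 1.58 ± 0.20 for day 6 cells and 2.12 ± 0.22 for neural stem cells (adjusted p = 2.89e-05 and 8.43e-06). The day 6 and neural stem cell arrays overlapped, and their difference (-0.55 ± 0.22) was not called, except without neural stem cell replicate 1. Robo2 stood at 8.75, 8.68 and 9.04 in astrocytes, 6.87, 6.89 and 7.44 in day 6 cells, 9.16 and 9.43 in neural stem cells, 6.57 and 6.57 in astrocyte iPSCs and 6.13 and 6.57 in MEF iPSCs. It was above 7.44, the highest value of the other groups, on all astrocyte and neural stem cell arrays. Day 6 cells were -1.76 ± 0.17 from astrocytes and -2.23 ± 0.19 from neural stem cells (adjusted p = 2.8e-06 and 2.67e-06). Neither Robo was called between day 6 cells and an iPSC group. Among the 3 Slits and 4 Robos, limma called 0 in either contrast of iPSCs with day 6 cells, beside 6.11% of all genes in each. With so few genes, a count of 0 is not far from that share. Of these genes 3 (astrocyte iPSCs) and 4 (MEF iPSCs) had an unadjusted p under 0.05, and the trend and robust settings also called 0. The share of all genes with such an unadjusted p was not counted. Slit3 was called higher in astrocyte iPSCs than in day 6 cells without astrocyte iPSC replicate 1.

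Among netrins, Ntn1 and Ntn4 parted. Ntn1, the secreted attractant of commissural axons, stood at 7.97, 8.09 and 7.80 in astrocytes, 9.37, 9.27 and 9.5 in day 6 cells, 8.02 and 8.09 in neural stem cells, 7.72 and 8.23 in astrocyte iPSCs and 8.13 and 7.95 in MEF iPSCs. The lowest day 6 array was at 9.27 and the highest of the others at 8.23. Day 6 cells were higher than astrocytes by 1.42 ± 0.13 and than neural stem cells by 1.32 ± 0.14 (adjusted p = 1.51e-06 and 1.77e-05). Astrocyte and MEF iPSCs were lower than day 6 cells, at -1.40 ± 0.14 and -1.34 ± 0.14. Ntn4, a netrin of basement membranes, stood at 9.59, 9.51 and 9.34 in astrocytes, 7.57, 7.43 and 7.39 in day 6 cells, 8.38 and 8.17 in neural stem cells, 6.62 and 6.71 in astrocyte iPSCs and 6.30 and 6.58 in MEF iPSCs. Astrocytes were highest without overlap, and day 6 cells were -2.02 ± 0.10 from them (adjusted p = 1.03e-08). Its difference for MEF iPSCs minus day 6 cells (-1.02 ± 0.11) lay at the fold limit and was not called without day 6 replicate 1 or without MEF iPSC replicate 1. Ntn3 and Ntn5 were called in no pair.

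The Unc5 receptors, which mediate repulsion by netrins, moved in both directions. Unc5d, which also binds the adhesion protein Flrt2, stood at 6.26, 6.32 and 6.44 in astrocytes, 7.41, 7.59 and 8.06 in day 6 cells, 7.30 and 7.5 in neural stem cells, 6.13 and 6.45 in astrocyte iPSCs and 6.25 and 6.41 in MEF iPSCs. Day 6 cells and neural stem cells were above all other arrays and overlapped with each other, with 1.35 ± 0.15 for day 6 cells minus astrocytes and 0.29 ± 0.17 for day 6 cells minus neural stem cells, the latter not called. The second probe set of Unc5d gave 1.25 for day 6 cells minus astrocytes, with no test. Unc5b, a receptor known from blood vessels, ran the other way, at 7.93, 7.92 and 7.87 in astrocytes, 6.43, 6.49 and 6.61 in day 6 cells, 6.95 and 7.06 in neural stem cells, 7.96 and 7.98 in astrocyte iPSCs and 8.29 and 8.06 in MEF iPSCs. Day 6 arrays were the lowest, -1.40 ± 0.07 from astrocytes, and the iPSC arrays were the highest, 1.46 ± 0.08 and 1.67 ± 0.08 from day 6 cells (adjusted p = 2.33e-08, 2.15e-07 and 8.32e-08).

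Unc5d was lower in both iPSC groups than in day 6 cells (-1.40 ± 0.17 and -1.36 ± 0.17). Unc5c was at 7.80, 7.75 and 7.67 in astrocytes and 7.29, 7.32 and 7.07 in day 6 cells, without overlap, and its difference of -0.51 ± 0.12 was under the fold limit. None of the 4 Unc5 receptors was called by limma between day 6 cells and neural stem cells, beside 8.88% of all genes. With 4 genes, a count of 0 is not far from that share. There 3 had an unadjusted p under 0.05, a limit at which all genes were not counted, and the trend and robust settings called 0.

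Some genes marked a single population, that is, they were called the same way against each of the 4 other groups. Of the 67 guidance genes, 18 did so for at least 1 group, and of all genes 11.3% did. Astrocytes were set apart by 9 higher genes (Epha4, Sema3b, Sema3c, Sema3f, Sema5a, Plxnb2, Nrp1, Slit2 and Ntn4), beside 5.24% of all genes, and by 1 lower, Epha7, beside 2.67%. The Epha7 placing in astrocytes was lost without astrocyte replicate 1. Day 6 cells had 3 higher (Epha7, Nrp2 and Ntn1) and 1 lower (Epha4), beside 0.542% and 0.221% of all genes. Neural stem cells had 4 higher (Epha3, Sema3a, Plxna2 and Plxnc1) and 2 lower (Epha2 and Sema3e), beside 1.81% and 0.507% of all genes. Sema3e was no longer set apart with cyclic loess, without neural stem cell replicate 1 or without astrocyte iPSC replicate 2.

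**Figure D4:**
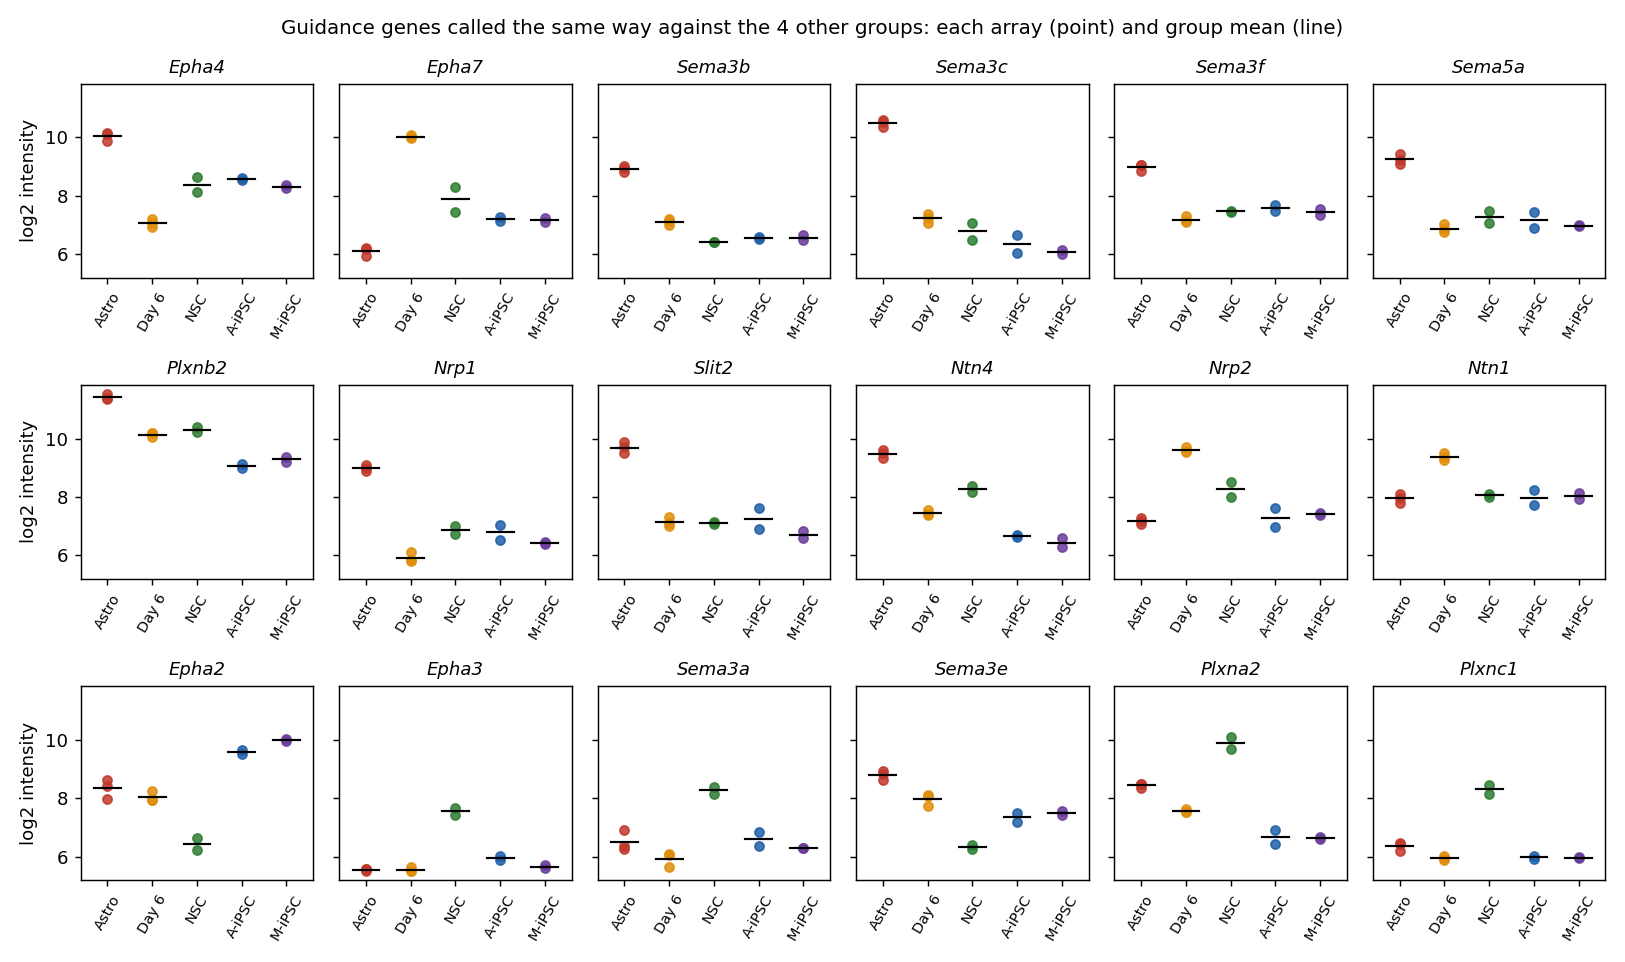
Log2 intensity of the 18 guidance genes set apart in a group, with a point for each array and a line for each group mean (Astro, astrocytes; NSC, neural stem cells; A-iPSC and M-iPSC, iPSCs from astrocytes and from MEFs). The day 6 points are the highest for Epha7, Nrp2 and Ntn1 and the lowest for Epha4.

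No guidance gene was set apart in astrocyte iPSCs or in MEF iPSCs, beside 0.361% and 0.135% of all genes. This follows from the next count, since a gene set apart in 1 iPSC group must differ from the other. The iPSC groups did not differ from each other in any of the 67 by the rule for calls, where 0.742% of all genes were called. By limma 11 of the 67 had an unadjusted p under 0.05, or 16.4%, against 16.6% of all genes, and the trend and robust settings also called 0. At any fold 3 passed a limma adjusted p of 0.05 (Sema6d, Sema6c and Sema4g), beside 1150 of all 19938 genes. Sema6d was at 6.83 and 7.18 in astrocyte iPSCs and 6.33 and 6.32 in MEF iPSCs, higher in astrocyte iPSCs by 0.67 (95% interval 0.35 to 0.99, adjusted p = 0.0209). Sema6c (-0.64 ± 0.16, interval -0.99 to -0.29) and Sema4g (-0.55 ± 0.11, interval -0.80 to -0.30) were lower. None of these arrays overlapped. In 63 of 67 genes the difference was under 0.5 in size.

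Further differences separated the iPSCs from the neural groups. Astrocyte iPSCs had 4 of 67 guidance genes higher and 22 lower than astrocytes, beside 20.8% of all genes called (9.44% higher and 11.4% lower). MEF iPSCs had 5 higher and 21 lower, beside 20.1% (8.71% and 11.4%). Against neural stem cells astrocyte iPSCs had 5 higher and 17 lower, beside 12.5% (5.03% and 7.51%), and MEF iPSCs 6 higher and 16 lower, beside 12.1% (4.63% and 7.45%). Of the 9 plexins, 6 were lower and 0 higher in each contrast with neural stem cells, among them Plxna2 at -3.21 ± 0.16 and -3.25 ± 0.16. Epha2 was higher, at 3.15 ± 0.19 and 3.55 ± 0.19 (largest adjusted p of the 4 differences 1.53e-07). Slit3, at 7.84 and 8.40 in astrocyte iPSCs and 7.89 and 7.83 in MEF iPSCs, also exceeded neural stem cells (1.46 ± 0.15 and 1.19 ± 0.15).

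Spread between arrays of a group touched some of these genes. Between the astrocyte iPSC arrays, 7 guidance genes were higher by over 0.5 in replicate 2 (Sema3c, Sema5a, Nrp1, Nrp2, Slit2, Slit3 and Ntn1) and 0 in replicate 1. How many of all genes lay as far apart on these arrays was not counted. The 7 fibroblast, feeder and meninges markers had mean levels of 8.53 in replicate 1 and 9.24 in replicate 2, with 8.22 and 8.18 in MEF iPSCs, 6.73 to 6.82 in day 6 cells and 7.65 to 8.33 in astrocytes. All 7 lay above the array median in astrocyte iPSCs, 6 in MEF iPSCs, 5 in astrocytes, 5 in day 6 cells and 3 in neural stem cells, and their part in the astrocyte and iPSC levels was not tested. Without that replicate 2, Plxna2, Sema3c and Unc5c became called between day 6 cells and astrocyte iPSCs and Ephb4 was lost, for 13 of 67 against 11. Between the neural stem cell arrays 11 guidance genes were higher by over 0.5 in replicate 2 (Epha4, Epha5, Epha7, Ephb1, Efna3, Sema3c, Sema7a, Plxna4, Plxnd1, Nrp2 and Robo1) and 0 in replicate 1. Here too the share of all genes was not counted. The 7 neuron markers had mean levels of 8.64 and 9.27 on these arrays. The means were 7.53 to 7.57 in astrocytes and 7.09 to 7.18 in day 6 cells, though Stmn2 was higher in both groups than in neural stem cells. The part of these markers in the neural stem cell levels was not tested. Without that array, 7 guidance genes were higher in neural stem cells than in astrocytes in place of 11, as Nrp2, Sema4c, Sema6c and Unc5d were no longer called.

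Of the 67 genes, 44 were called in at least 1 of the 10 pairs of groups, where 32% of all genes were, and 23 were called in none. The 23 comprised 4 Eph receptors (Epha6, Epha8, Epha10 and Ephb6), 5 ephrins, 6 semaphorins (Sema3d, Sema3g, Sema4a, Sema4b, Sema4f and Sema6b), 2 plexins (Plxna1 and Plxnb3), Slit1, Robo3, Robo4, Ntn3, Ntn5 and Unc5a. Of them 9 never exceeded the array median on 2 arrays, so a change in them would be hard to see. Others lay well above the array median throughout, and 2 of these, picked after their values were seen, are Sema4b, a transmembrane semaphorin, at 8.31 to 9.15, and Efnb2, the ligand of Ephb4, at 8.34 to 9.36.

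Other genes of the pathway were followed in a list of 62 partners, of which 60 were measured, 20 co-receptors and adhesion partners and 40 cytoplasmic effectors. Against astrocytes 1 was higher and 16 lower in day 6 cells, with a median of -0.32, and the shares and medians over all genes are those given above for each comparison. Chl1 and Nrcam, adhesion molecules of axons that act as co-receptors for semaphorin signals, fell by 4.04 ± 0.25 and 3.95 ± 0.13, and Rnd1, a small GTPase bound by plexins, by 3.22 ± 0.14. Tiam1, an activator of Rac, was the only one higher (1.63 ± 0.10). Against neural stem cells 3 were higher and 27 lower, with a median of -0.80. Crmp1, a mediator of semaphorin signals, was at -4.57 ± 0.13, Chl1 at -4.07 ± 0.28 and Gap43, a growth cone protein, at -3.70 ± 0.09. Met, the hepatocyte growth factor receptor that associates with plexins (2.93 ± 0.16), Ablim1, an actin-binding protein (1.82 ± 0.08), and Limk2, a kinase of cofilin (1.34 ± 0.10), were higher.

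The netrin receptor Dcc was at -2.67 ± 0.11 in day 6 cells against neural stem cells and, at 0.06 ± 0.10, was not called against astrocytes. Neural stem cells had 16 partners higher and 8 lower than astrocytes (median 0.25), with Crmp1 (4.67 ± 0.13), Dcc (2.73 ± 0.11) and Gap43 (2.69 ± 0.09) at the top and Met (-3.73 ± 0.16), Rnd1 (-3.08 ± 0.16) and Rnd3, a related GTPase (-2.16 ± 0.14), at the bottom. In astrocyte iPSCs 1 partner was higher than in day 6 cells, Crmp1 (2.05 ± 0.13), and 12 were lower, led by Dpysl3, a relative of Crmp1 (-2.17 ± 0.25), Met (-1.95 ± 0.16) and Ablim1 (-1.83 ± 0.08). MEF iPSCs had 3 higher, Crmp1 (2.46 ± 0.13), Rras (1.37 ± 0.21) and Gap43 (1.35 ± 0.09), and 10 lower, led by Dpysl3 (-2.19 ± 0.25), Ablim1 (-2.12 ± 0.08) and Pak3, a kinase downstream of Rac (-1.90 ± 0.15). The medians were -0.05 and -0.08.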

How the data were processed

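The authors deposited probe set intensities from RMA, per the submitters' processing notes, as 1 value per probe set and array. They are linear intensities from 20.2 to 15436, with array medians of 97.9 to 104.9, and all steps here used their log2. The RMA version and genome build are not given in the sources used here. Of 28853 probe sets, 21789 have 1 gene symbol, 1621 several and 5443 none in GEO's platform annotation. The guidance genes had 72 single-symbol probe sets, and 5 genes had more than 1. Group means over all 12 arrays were fitted in limma 3.58.1 (R 4.3.3, 7 residual degrees of freedom, 10.9 with the prior). The guidance genes, partner and marker lists were chosen with earlier results of these data known. Array values were printed, by rule, for the 5 highest and 5 lowest called genes of a comparison without overlap, genes set apart in a group, and the 2 widest-ranging genes of a family; partners by the 3 largest each way. Alternatives were other probe set rules, a filter on dim genes, cyclic loess, 16 subtracted before log2, other variance settings, only the groups compared, a replicate block and leaving out each array. Figures used Python 3.11.15 and matplotlib 3.10.9.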

Additional observations from a re-analysis of the deposited data

How the results depend on the processing

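All 49 fold changes of the 24 guidance genes named by comparison kept their direction and their call under each alternative, 598 values in all. Counts of guidance genes moved by over 1.5 times once: the number higher in neural stem cells than in astrocytes, 11, ranged from 7 (without neural stem cell replicate 2) to 13 over the arrays left out. With 16 subtracted before log2, the count in astrocyte iPSCs minus day 6 cells was 16 in place of 11, and that in day 6 cells minus astrocytes 28 in place of 24. With the replicate number as a block, the counts called were 24, 25, 12, 13, 25 and 0 in the 6 comparisons against 24, 25, 11, 13, 24 and 0 without it, in the order day 6 cells minus astrocytes and minus neural stem cells, astrocyte and MEF iPSCs minus day 6 cells, neural stem cells minus astrocytes, and astrocyte minus MEF iPSCs. Deviations of same-numbered day 6 and astrocyte arrays correlated at 0.41, -0.01 and 0.22, and 4 of the 6 arrays correlated best with their own number. The numbers were not taken as pairs because not every pair deviated together, and whether a number marks a shared day or culture is not known. Efnb1 (day 6 cells minus neural stem cells) was the 1 guidance gene whose call was lost with the block. Where leaving out an array left 1 in a group, that array was assumed to vary like the other groups. With 2 or 3 arrays a group, and 9 guidance genes dim throughout, small changes and changes of dim genes are poorly resolved.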

Other observations

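A second probe set existed for 5 guidance genes. For Unc5d it gave differences of 1.25 for day 6 cells minus astrocytes and -1.30 for astrocyte iPSCs minus day 6 cells, in the direction of the main probe set. For Sema4d the main probe set had means of 7.23 in neural stem cells, 8.25 in astrocyte iPSCs and 8.29 in MEF iPSCs. By that probe set Sema4d was called higher in each iPSC group than in neural stem cells, and it is in the counts given above. The second probe set of Sema4d had 7.21, 7.12 and 7.14 there, without that difference. For Ephb1 the second probe set stayed between 5.29 and 5.71 on all arrays, while the main one ran from 5.93 to 7.44, and these values have no test.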
